A study of Mus musculus with 6 samples.

Results

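Transcript levels of 10 genes of cytokine signalling were followed in exhausted CD8+ T cells from melanomas of mice given IL-10/Fc or phosphate-buffered saline (PBS). The genes were the transcription factor genes Stat4, Stat5a, Stat5b and Stat6, the kinase genes Jak2 and Jak3, the feedback inhibitor genes Socs1, Socs2 and Cish, and the survival kinase gene Pim2. They were taken by gene symbol from the deposited count table, which held all 10 among 15898 genes, and all 10 passed the filter on low counts that left 15477 genes for testing. Stat6 stood at 17.7 ± 2.78 CPM (SD, n = 4) with IL-10/Fc, against 32.2 ± 0.365 CPM (SD, n = 2) with PBS, and Stat4 also lay lower in every IL-10/Fc library. Pim2 lay higher in every IL-10/Fc library, and the other 7 genes overlapped between the groups. Over all genes tested, the groups did not overlap for 23.6%, 12.1% on the higher side and 11.5% on the lower side. No gene of the 10 passed the quasi-likelihood test of edgeR once p was adjusted over all genes (Benjamini-Hochberg). Stat6 was called lower in the authors' deposited table, which called 5.3% of all genes, 1.72% of them as lower.

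The IL-10/Fc group had 4 libraries and the PBS group 2. IL-10/Fc is interleukin-10 joined to an antibody Fc part, and 20 µg of it or PBS alone was injected beside the tumour every other day from day 10 of tumour growth, 4 times in all. Both groups were C57BL/6 mice that had been irradiated with 4 Gy on day -4 and had received naive Thy1.1+ PMEL T cells on day -3, B16F10 melanoma cells on day 0 and activated Thy1.2+ PMEL CD8+ T cells on day 10. The Thy1.1+ PMEL T cells were of the strain B6.Cg-Thy1a/Cy with the transgene Tg(TcraTcrb)8Rest/J. PMEL T cells carry a transgenic receptor against the melanocyte protein gp100, so the cells measured were of 1 specificity. The irradiated hosts also kept lymphocytes of their own. On day 18 the earlier transferred cells were sorted from tumours as Thy1.1+PD-1+TIM-3+CD8+, in pools of 500 cells for each library, and Smart-Seq2 libraries were sequenced. Neither the age of the mice nor whether replicate libraries stem from separate animals is given in the labels. The p-values therefore refer to the spread among libraries, part of which may be technical.

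Cytokine receptors of this family have no kinase activity of their own and carry Janus kinases (JAKs) on their intracellular tails. After cytokine binding the kinases phosphorylate the receptor and then signal transducer and activator of transcription (STAT) proteins, which pair, enter the nucleus and bind DNA at TTCNNNGAA-type sites. In T cells, STAT5A and STAT5B mainly act downstream of interleukin-2, interleukin-7 and interleukin-15, STAT4 downstream of interleukin-12, and STAT6 downstream of interleukin-4. JAK3 is bound to the common gamma chain of the interleukin-2 receptor family, and JAK2 to receptors such as those of interleukin-12 and interferon gamma. SOCS1, SOCS2 and CIS (the product of Cish) are induced by STATs and dampen the pathway, and PIM2 is a constitutively active kinase whose transcription follows STAT5 in lymphocytes. Interleukin-10 signals mainly through JAK1, TYK2 and STAT3, so these 10 genes lie mostly on the branches beside it.

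Depth was 28235203 to 36941814 counts in the IL-10/Fc libraries and 26738871 and 28774401 counts in the PBS libraries, at which 3 counts equal 0.0812 to 0.112 CPM. That floor covers counting error only. CPM are counts per gene set to a common library total, here scaled by edgeR's trimmed mean of M-values (TMM). Summed CD8 T cell markers lay at 12653 to 14460 CPM with IL-10/Fc against 5982 and 9920 CPM with PBS, with all 7 markers detected in every library. Summed macrophage and monocyte markers (13 genes) spanned 161 to 729 CPM with IL-10/Fc and 280.3 and 420 CPM with PBS, summed MHC class II and dendritic cell markers (5 genes) 109.6 to 1882 CPM with IL-10/Fc against 163 and 277 CPM with PBS, and summed NK markers (5 genes) 104 to 511 CPM with IL-10/Fc against 65.8 and 72.7 CPM with PBS. By their log2 fold changes 7 of 7 CD8 T cell, 11 of 13 macrophage, 4 of 5 MHC class II and 4 of 5 NK markers lay higher with IL-10/Fc. The authors' deposited table called 4 of these CD8 T cell, 4 macrophage, 0 MHC class II and 2 NK markers, all as higher. It called 3.57% of all genes higher. Most of the NK sum in every library was Fcer1g, at 84.6 to 375 CPM with IL-10/Fc against 34.4 and 40.7 CPM with PBS. Klrb1c, the NK marker that lay lower, stood at 0.0335 to 0.720 CPM with IL-10/Fc against 10.1 and 0.0654 CPM with PBS (log2 fold change -4.26, edgeR adjusted p = 0.387). The summed fibroblast and endothelial markers (2 genes measured) lay lower, at 6.59 to 9.87 CPM with IL-10/Fc against 20.4 and 16.6 CPM with PBS. Col1a1 in that sum had a higher mean with IL-10/Fc, 0.317 ± 0.440 CPM against 0.0497 ± 0.0222 CPM with PBS. Its groups overlapped, and the filter on low counts left it out of the edgeR test. Nearly all of that sum was Pecam1, which stood at 7.68 ± 1.74 CPM with IL-10/Fc and 18.5 ± 2.70 CPM with PBS (log2 fold change -1.27, edgeR adjusted p = 0.197; called lower in the authors' deposited table, adjusted p 0.0027). Mrc1 was at 0 in both PBS libraries and Itgam in 1, and the neutrophil, B cell and melanoma markers each summed, list by list, to 9.04 CPM or less in every library. Cd4 and Foxp3 were not analysed here. In pools of 500 cells, a smaller share of cells that express a gene and less RNA of it per cell cannot be told apart, and the part of the marker differences in the results below was not tested.

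Across the whole table, at an adjusted p under 0.05, the edgeR quasi-likelihood test called 0.00646% of genes (1 of 15477, and it was not among these 10). Of the 10 genes 0 were called by edgeR and 0 by limma-voom, which also called 0.00646% of all genes. At an unadjusted p under 0.05 there were 3 of the 10 by edgeR (12.7% of all genes), 2 by limma-voom (13.5%) and 4 by DESeq2 (15.9%). The 3 by edgeR, Stat4, Stat6 and Socs2, were all on the lower side, where 5.52% of all genes lay, against 7.2% on the higher side, where none of the 10 did. The authors' deposited table called 1 of the 10, Stat6, as lower, beside 5.3% of all genes called there, 3.57% higher and 1.72% lower. A DESeq2 refit of the same counts called the same gene, beside 4.64% of all genes, 3.16% higher and 1.48% lower. The median log2 fold change was 0.06 for the 10 genes and -0.01 for all genes tested, with 6 of the 10 above 0 and 4 below. Scaled by library size only, Jak2, Socs1 and Cish went below 0 as well, and the median of all genes was -0.18. Libraries of the groups did not overlap for 3 of the 10 (23.6% of all genes), Pim2 on the higher side (12.1%) and Stat4 and Stat6 on the lower side (11.5%).

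**Figure D1:**
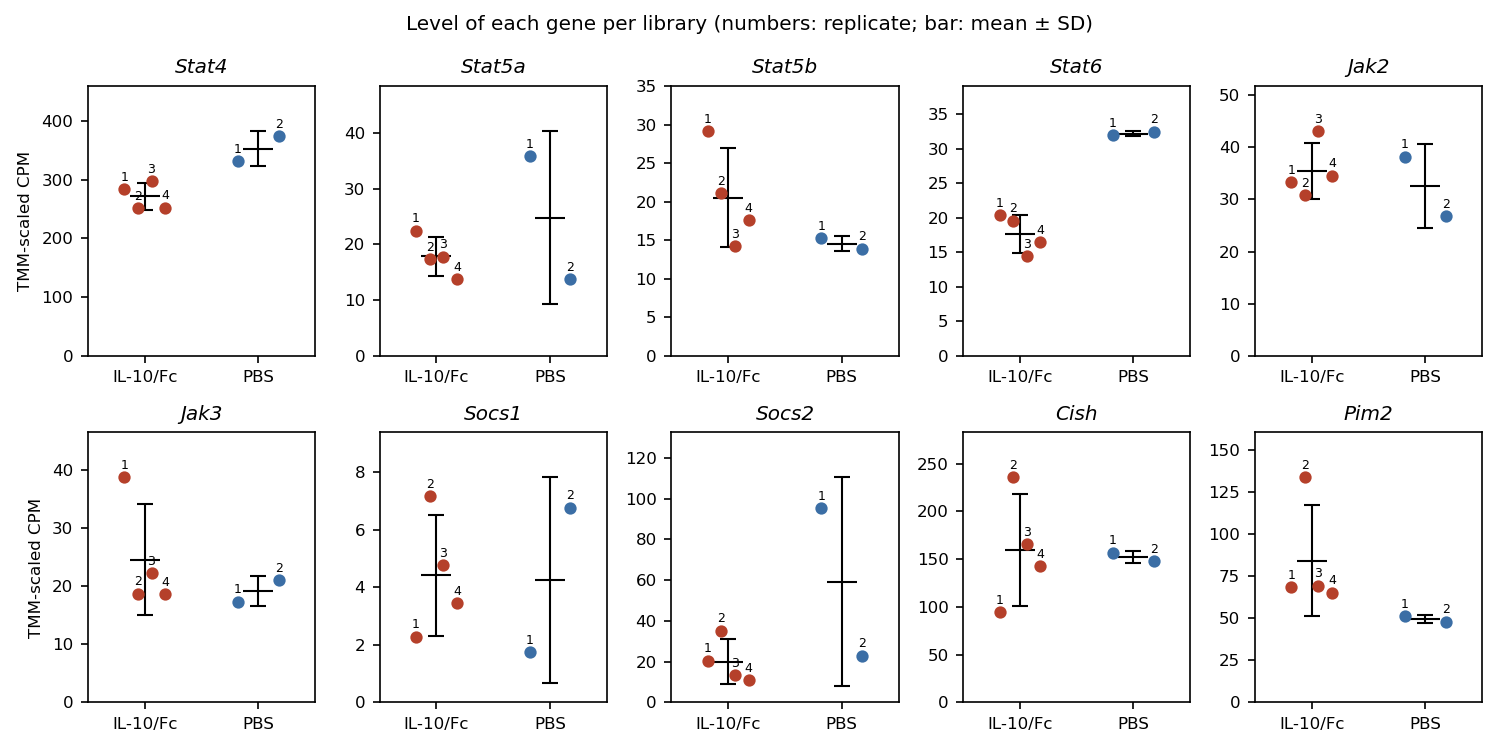
Level of each gene in TMM-scaled CPM (vertical axes start at 0) in each of the 4 IL-10/Fc libraries (red) and 2 PBS libraries (blue), with replicate numbers beside the points and bars for the mean ± SD. The groups do not overlap for Stat4, Stat6 and Pim2. The PBS libraries lie far apart for Stat5a and Socs2, with replicate 1 the higher, and for Socs1, with replicate 2 the higher.

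Stat6 (ENSMUSG00000002147, chromosome 10, 127642986 to 127660957 on the plus strand of GRCm38), the factor that carries the interleukin-4 signal, had the smallest p of the 10 and ranked 302 of 15477 genes by p. The 250 bases just before its annotated start, from RefSeq on GRCm38.p6, are shown because it is the gene of the 10 with the clearest group difference. No letters are in capitals, since neither STAT motif searched (given with Cish below) has a match in it, which says only that these letters are not in this window, and its GC content is 56.8%.
Stat6, chr10:127642736-127642985, plus strand: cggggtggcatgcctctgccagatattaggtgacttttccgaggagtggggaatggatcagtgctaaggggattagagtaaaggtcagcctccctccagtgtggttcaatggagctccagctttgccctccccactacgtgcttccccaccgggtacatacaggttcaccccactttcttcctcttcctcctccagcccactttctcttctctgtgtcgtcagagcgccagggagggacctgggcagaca

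Stat6 stood at 20.4, 19.6, 14.4 and 16.4 CPM in IL-10/Fc replicates 1 to 4, against 32.0 and 32.5 CPM in the PBS libraries. Both PBS libraries lay close together and above every IL-10/Fc library, and the IL-10/Fc mean was 0.550 of the PBS mean. The log2 fold change was -0.86 (SE 0.20), with adjusted p = 0.206 (edgeR quasi-likelihood test, Benjamini-Hochberg). The authors' deposited table gives the same log2 fold change of -0.86 (SE 0.23) with an adjusted p of 0.00637, and the DESeq2 refit gave an adjusted p of 0.0121. Without single libraries the edgeR log2 fold change lay between -0.94 and -0.77. The DESeq2 call was lost when IL-10/Fc replicate 4 (DESeq2 adjusted p = 0.0911), PBS replicate 1 (0.169) or PBS replicate 2 (0.127) was left out, and stayed without IL-10/Fc replicates 1, 2 or 3 (adjusted p = 0.0121, 0.0289 and 0.0376). Stat6 and the neighbouring gene Nab2, on the opposite strand, share 40 bases of exon, and Smart-Seq2 does not mark strand. Nab2 stood at 2.99 ± 1.43 CPM with IL-10/Fc (SD, n = 4) and 7.90 ± 4.93 CPM with PBS (SD, n = 2), below Stat6 in every library.

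The 5 genes whose centred log2 CPM was nearest to that of Stat6 over the 6 libraries, among 4642 named genes with a mean of at least 20 CPM, were Eif3b, Dcaf11, Ptpn7, Traf2 and Stk38. Their root mean square difference from Stat6 ran from 0.107 (Eif3b) to 0.135 (Stk38) on the log2 scale. Eif3b, a subunit of the translation initiation factor eIF3, stood at 87.8 ± 10.1 CPM with IL-10/Fc (SD, n = 4) and 154.9 ± 13.9 CPM with PBS (SD, n = 2). Traf2, an adaptor of tumour necrosis factor receptors, stood at 32.5 ± 4.00 CPM with IL-10/Fc and 51.0 ± 4.28 CPM with PBS. All 5 were chosen for this likeness, so their group differences are a description.

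Stat4 (ENSMUSG00000062939, chromosome 1, 51987148 to 52107189, plus strand), the factor of the interleukin-12 signal and of interferon gamma induction, was the most abundant of the 10 in counts. Stat4 was also first per annotated exon length, an approximate scale taken up below. It stood at 283, 252, 298 and 253 CPM in IL-10/Fc replicates 1 to 4, against 332 and 374 CPM in the PBS libraries. Every IL-10/Fc library lay below both PBS libraries, and the replicates spread little, with a coefficient of variation of 8.40% with IL-10/Fc and 8.46% with PBS. Its log2 fold change was -0.38 (SE 0.11), with adjusted p = 0.28 (edgeR quasi-likelihood test, Benjamini-Hochberg). In the authors' deposited table the adjusted p was 0.103, and without single libraries the edgeR log2 fold change lay between -0.46 and -0.29. The annotation places Gm28177 on the same strand within the gene, sharing 1033 bases of exon, so reads could be split between both genes.

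Stat5a and Stat5b encode near-identical factors of the interleukin-2 family signal and lie 8.63 kb apart on chromosome 11. Stat5a (ENSMUSG00000004043) spans 100859351 to 100885169 on the plus strand and Stat5b (ENSMUSG00000020919) spans 100780731 to 100850724 on the minus strand. Of the 50-base windows along the transcripts, 8.21% of those of Stat5a and 11.0% of those of Stat5b occur in the other gene, so reads from these stretches could have come from either, and Stat5a shares 72 bases of exon with Stat3 on the opposite strand. Stat5a stood at 22.5, 17.4, 17.8 and 13.8 CPM in IL-10/Fc replicates 1 to 4, against 35.8 and 13.8 CPM in the PBS libraries. The PBS libraries differed 2.59-fold and enclosed the IL-10/Fc values. Its log2 fold change of -0.47 (SE 0.40, adjusted p = 0.696, edgeR quasi-likelihood test, Benjamini-Hochberg) was 0.37 without PBS replicate 1 and -1.003 without PBS replicate 2. Stat5b stood at 29.2, 21.1, 14.3 and 17.6 CPM in IL-10/Fc replicates 1 to 4, against 15.3 and 13.9 CPM in the PBS libraries. IL-10/Fc replicates 1, 2 and 4 lay above both PBS libraries and replicate 3 between them, with a log2 difference of 0.49 (SE 0.32, adjusted p = 0.578 by the same edgeR test). Without single libraries it lay between 0.28 (IL-10/Fc replicate 1 left out) and 0.64 (replicate 3 left out).

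Taken per exon length, Stat5a made up 37.4%, 39.0%, 49.2% and 37.9% of the summed Stat5a and Stat5b counts in IL-10/Fc replicates 1 to 4, against 64.6% and 43.5% in the PBS libraries. On this approximate scale Stat5b was the more abundant of the pair in IL-10/Fc replicates 1, 2 and 4 and in PBS replicate 2, and Stat5a in PBS replicate 1. In IL-10/Fc replicate 3 the shares were nearly even. By counts not divided by length, Stat5b was also ahead in IL-10/Fc replicates 1, 2 and 4. Stat5a and Stat5b then had 494 and 396 counts in IL-10/Fc replicate 3, and 423 and 426 in PBS replicate 2. Which gene is ahead thus depends in part on the exon lengths used, 7133 bases for Stat5a and 5539 for Stat5b. The mean share was 40.9 ± 5.60% with IL-10/Fc (SD, n = 4) and 54.1 ± 14.9% with PBS (SD, n = 2), a difference of -13.2 percentage points (two-sided exact permutation test over the 6 libraries, p = 0.133, adjusted 0.2 over 3 single values so tested). The smallest p this test can give is 0.0667, so no single value could pass 0.05 by it.

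The summed level of Stat4, Stat5a, Stat5b and Stat6 was 355, 310.2, 344 and 300.4 CPM in IL-10/Fc replicates 1 to 4, against 415 and 434 CPM in the PBS libraries. Most of this sum was Stat4. The difference was -0.38 on the log2 scale, with the smallest possible p, 0.0667, by the two-sided exact permutation test (adjusted 0.2 over the same 3 values). Among 6 STAT genes (Stat2, Stat3, Stat4, Stat5a, Stat5b and Stat6), counts per exon length gave Stat4 a share of 64.7 ± 2.60% with IL-10/Fc and 64.7 ± 5.06% with PBS (SD, n = 4 and 2), and Stat3, the main factor of interleukin-10, a share of 24.5 ± 1.59% with IL-10/Fc and 25.0 ± 8.61% with PBS. Stat6 held 2.90% to 4.26% with IL-10/Fc and 4.67% and 5.78% with PBS, the only one of the 6 shares that was lower without overlap (exact permutation p = 0.0667, adjusted over the 6 shares 0.4). Stat5b held 2.28% to 4.55% with IL-10/Fc and 1.59% and 2.19% with PBS, higher without overlap (exact permutation p = 0.133, adjusted 0.4). Over all 6 libraries Stat5a held 1.23% to 4.00% of these counts per length.

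**Figure D2:**
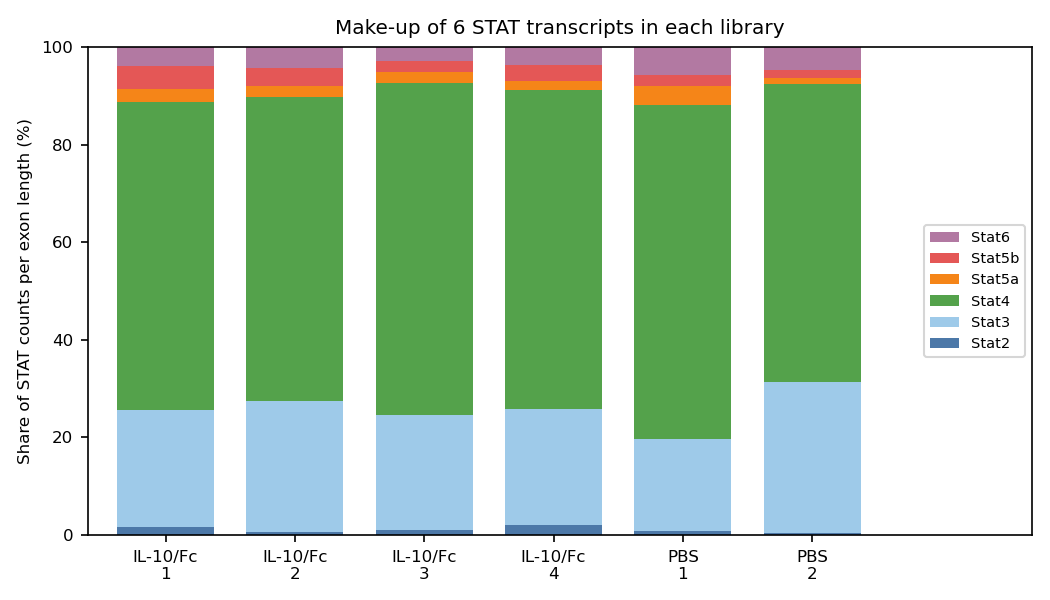
Share of each of the 6 STAT genes (stacked colours, %) in their summed counts per exon length, for the 4 IL-10/Fc libraries on the left and the 2 PBS libraries on the right. Stat4 holds more than any other in each library, from 61.1% to 68.3%, and the Stat6 band at the top is wider in both PBS libraries than in any IL-10/Fc library.

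Jak2 (ENSMUSG00000024789, chromosome 19, 29251828 to 29313080, plus strand) stood at 33.3, 30.9, 43.1 and 34.6 CPM in IL-10/Fc replicates 1 to 4, against 38.2 and 26.8 CPM in the PBS libraries. The groups overlapped, with a log2 difference of 0.13 (SE 0.22, adjusted p = 0.882, edgeR quasi-likelihood test, Benjamini-Hochberg), which was -0.046 when counts were scaled by library size only and -0.11 without PBS replicate 2. Jak3 (ENSMUSG00000031805, chromosome 8, 71676296 to 71690575, plus strand) stood at 38.6, 18.7, 22.2 and 18.6 CPM in IL-10/Fc replicates 1 to 4, against 17.3 and 20.9 CPM in the PBS libraries. IL-10/Fc replicate 1 stood apart at the top and the other 3 lay within or just above the PBS values. The log2 fold change of Jak3 was 0.36 (SE 0.36, adjusted p = 0.754 by the same edgeR test) with all libraries and 0.05 without that replicate. Jak3 shares 404 bases of exon with Insl3 on the same strand, so its counts could hold reads of that gene.

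Cish (ENSMUSG00000032578, chromosome 9, 107296026 to 107302784, plus strand) encodes a feedback inhibitor known as a STAT5 target gene, and it was the second of the 10 in CPM, after Stat4, in both groups. RefSeq promoter windows of 250 bases before to 50 after the annotated start were found for 9 of the genes (all but Socs2), 12 windows in all. They were searched on both strands for the STAT motif TTCNNNGAA and for the STAT6 form of it, which has a gap of 4 bases in place of 3. The STAT motif occurs in 8.3% of all 32851 such windows and the STAT6 form in 6.95%. Among the 10 genes, 1 window held a match, that of Cish, with 2 matches to TTCNNNGAA, and 0.457% of all windows hold 2 or more. The stretch is shown with both matches in capitals because it is the only match found; the matches lie at bases 1 to 9 and 12 to 20 from the RefSeq start, 2 bases apart, inside an annotated exon of a longer transcript.
Cish, chr9:107296654-107296683, plus strand: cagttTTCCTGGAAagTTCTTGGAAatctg

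A match to these letters is a description of sequence and does not show binding. Cish stood at 94.8, 236, 166 and 143 CPM in IL-10/Fc replicates 1 to 4, against 157 and 148 CPM in the PBS libraries. The IL-10/Fc libraries lay on both sides of the narrow PBS pair, and their spread was wide, with a coefficient of variation of 36.6% with IL-10/Fc against 4.06% with PBS. The log2 fold change was 0.07 (SE 0.33, adjusted p = 0.966, edgeR quasi-likelihood test, Benjamini-Hochberg), which was -0.10 when counts were scaled by library size only and -0.18 without IL-10/Fc replicate 2. A p that misses the threshold does not show equal levels. The antisense gene Gm17040 shares 261 bases of exon with Cish and stood at 0.122 ± 0.185 CPM with IL-10/Fc (SD, n = 4) and 0.806 ± 0.446 CPM with PBS (SD, n = 2).

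Socs1 (ENSMUSG00000038037, chromosome 16, 10783808 to 10785536, minus strand), an inhibitor that binds JAKs directly, was the least abundant in CPM. It stood at 2.28, 7.15, 4.76 and 3.45 CPM in IL-10/Fc replicates 1 to 4, against 1.73 and 6.76 CPM in the PBS libraries. Its raw counts were 68, 205, 132 and 121 with IL-10/Fc and 51 and 207 with PBS, and the PBS libraries differed 3.90-fold in CPM. The log2 fold change of 0.05 (SE 0.68, adjusted p = 0.989, edgeR quasi-likelihood test, Benjamini-Hochberg) ran from -0.62 without PBS replicate 1 to 1.34 without PBS replicate 2. It was -0.10 when counts were scaled by library size only. No direction can be given for Socs1 from these libraries.

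Socs2 (ENSMUSG00000020027, chromosome 10, 95385362 to 95417180, minus strand), known for restraining growth hormone signalling and induced through STAT5, had the lowest log2 fold change of the 10. It stood at 20.5, 35.2, 13.4 and 11.1 CPM in IL-10/Fc replicates 1 to 4, against 95.5 and 23.0 CPM in the PBS libraries. PBS replicate 1 alone lay far above the rest, and PBS replicate 2 lay within the IL-10/Fc range. Its fitted difference was -1.56 on the log2 scale (SE 0.65), with adjusted p = 0.392 (edgeR quasi-likelihood test, Benjamini-Hochberg). Without PBS replicate 1 it was -0.20 and without PBS replicate 2 it was -2.25, so its size depended on which PBS library was kept. The DESeq2 refit called Socs2 lower with PBS replicate 2 left out (adjusted p = 0.00456) or IL-10/Fc replicate 2 left out (adjusted p = 0.0206), and not with all 6 libraries (adjusted p = 0.121). The summed level of Socs1, Socs2 and Cish was 118, 278, 184 and 157 CPM in IL-10/Fc replicates 1 to 4, against 254 and 178 CPM in the PBS libraries (two-sided exact permutation test, p = 0.533).

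Pim2 (ENSMUSG00000031155, chromosome X, 7878262 to 7883432, plus strand), a serine/threonine kinase that promotes survival and protein synthesis, was the gene of the 10 with the largest positive log2 fold change. The 206 bases before its annotated span, from RefSeq on GRCm38.p6, are shown beside those of Stat6 because these genes had the smallest p in each direction. No letters are in capitals, as neither STAT motif has a match in its window, and its GC content is 58.3%.
Pim2, chrX:7878056-7878261, plus strand: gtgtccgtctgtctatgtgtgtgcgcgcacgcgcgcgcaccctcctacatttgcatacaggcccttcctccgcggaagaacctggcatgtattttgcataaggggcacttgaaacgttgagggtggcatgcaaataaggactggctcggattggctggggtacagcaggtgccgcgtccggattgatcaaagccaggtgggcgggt

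Pim2 stood at 68.3, 134, 69.3 and 65.2 CPM in IL-10/Fc replicates 1 to 4, against 51.2 and 47.9 CPM in the PBS libraries. All 4 IL-10/Fc libraries lay above both PBS libraries, 3 of them close together and replicate 2 far above. On the log2 scale the difference was 0.76 (SE 0.34), with adjusted p = 0.419 (edgeR quasi-likelihood test, Benjamini-Hochberg). It was 0.45 without IL-10/Fc replicate 2 and between 0.72 and 0.87 without any other single library. In the authors' deposited table the adjusted p was 0.197. The related kinase gene Pim1, also known to be induced by STATs, stood at 17.5, 14.9, 16.4 and 15.4 CPM in IL-10/Fc replicates 1 to 4, against 6.66 and 7.74 CPM in the PBS libraries. IL-10/Fc replicate 2, highest of its group for Pim2, was the lowest for Pim1.

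**Figure D3:**
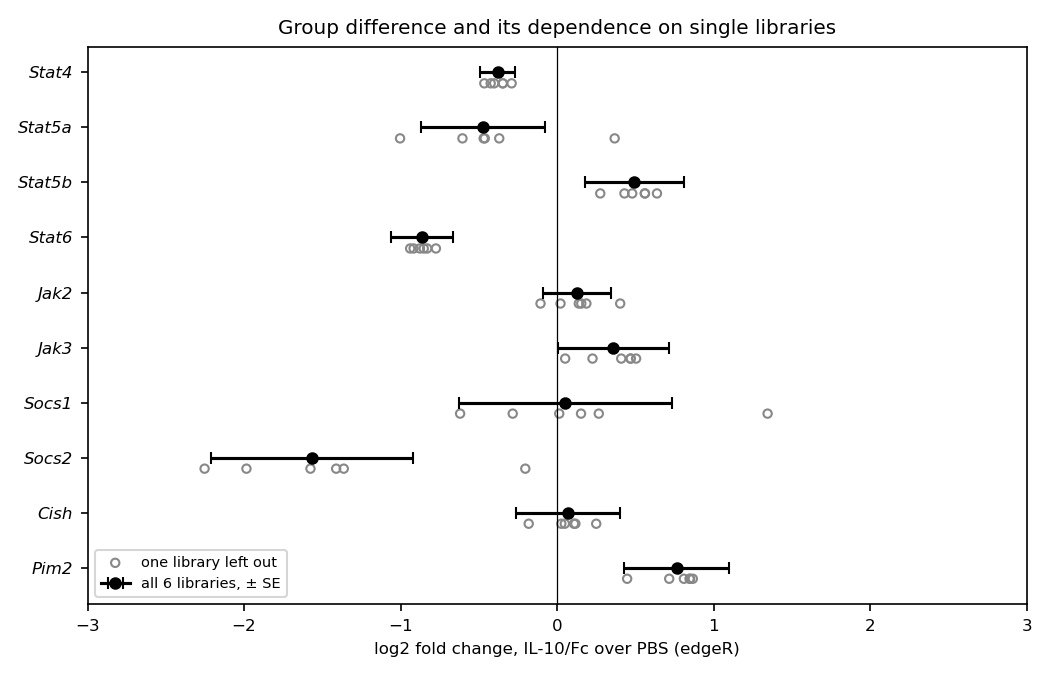
Log2 fold change of each gene, IL-10/Fc over PBS, from edgeR with all 6 libraries (black, ± SE) and with 1 library left out at a time (grey circles). Stat4, Stat5b, Stat6, Jak3, Socs2 and Pim2 keep their side of 0 with every library left out. Without PBS replicate 1, Stat5a turns to 0.37 and Socs2 comes to -0.20.

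Among the IL-10/Fc libraries, replicate 2 held the group's highest level of Socs1, Socs2, Cish and Pim2, all known as induced through STAT5 or other STATs. The genes listed below as induced through STAT5 were split. Bcl2, Ccnd2, Lta and Id2 were also highest in replicate 2, but Bcl2l1, Mcl1 and Ccnd3 in replicate 1, and Myc, Osm and Il2ra in replicate 3. Of the 10 genes, replicate 1 held the highest level of Stat5a, Stat5b, Stat6 and Jak3 and the lowest of Socs1 and Cish. Cish was 2.48 times as high in replicate 2 as in replicate 1, and Socs1 3.14 times. In the PBS group, replicate 1 was the higher for Stat5a and Socs2 and the lower for Socs1. These patterns were seen in single libraries and carry no test.

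**Figure D4:**
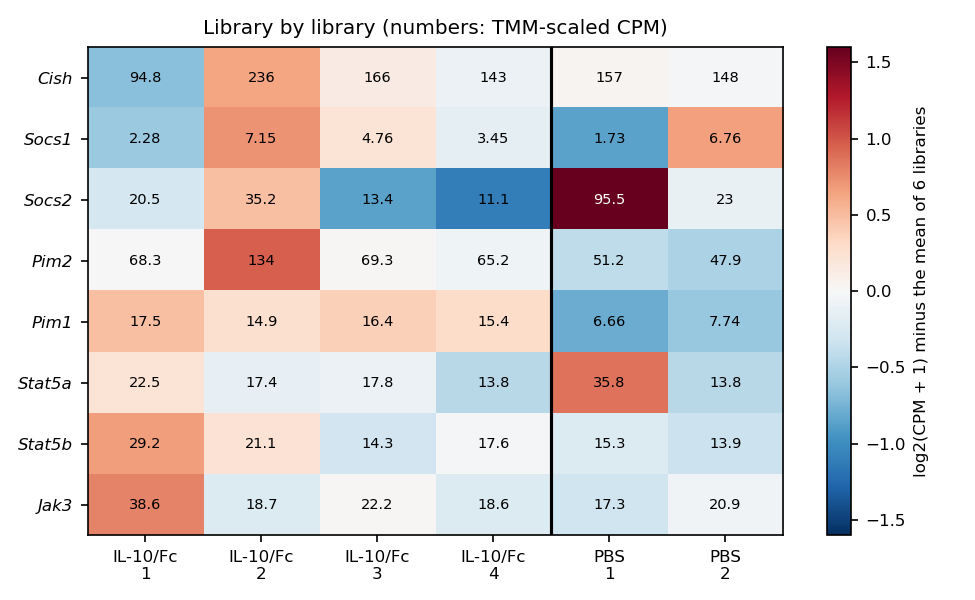
Each cell gives the TMM-scaled CPM of a gene (rows) in a library (columns, 4 IL-10/Fc left of the line and 2 PBS right of it), and the colour gives log2(CPM + 1) minus the gene's mean over the 6 libraries. IL-10/Fc replicate 2 is red for Cish, Socs1, Socs2 and Pim2, and IL-10/Fc replicate 1 for Jak3 and Stat5b; the strongest red is Socs2 at 95.5 CPM in PBS replicate 1.

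Levels of different genes were compared as CPM per kb of annotated exon, an approximate scale since the exon lengths include retained introns. The Cish length, 6419 bases in 3 exon blocks, covers nearly all of the gene's span. The place of Cish against Stat4 and Pim2 therefore depends on the length taken. The Socs1 length, 1340 bases, leaves out part of its longer annotated span, so its place depends on the length taken too. Per kb of annotated exon the order of mean levels with IL-10/Fc was Stat4 (70.1), Pim2 (30.1), Cish (24.9), Jak2 (7.05), Jak3 (4.58), Stat6 (4.02), Stat5b (3.71), Socs1 (3.29), Stat5a (2.50) and Socs2 (2.10 CPM per kb). In that order Stat4 was apart from Pim2 and Cish from Jak2 in every library, and all other neighbours overlapped. With PBS the order was Stat4 (91.2), Cish (23.8), Pim2 (17.7), Stat6 (7.32), Jak2 (6.46), Socs2 (6.22), Jak3 (3.57), Stat5a (3.48), Socs1 (3.17) and Stat5b (2.63 CPM per kb). There Stat4, Cish and Pim2 were each apart from the next, and the 7 lower genes overlapped with their neighbours.

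The receptors and the rest of the pathway were described from 9 lists, in none of which edgeR called a gene in the main fit. With the filter of at least 20 CPM in 2 libraries, edgeR called Il10ra (adjusted p = 0.0422) and Ptprc (adjusted p = 0.0412) among the genes named. The authors' deposited table, cited below for single genes, called 3.57% of all genes higher and 1.72% lower. Of 7 measured receptors of the common gamma family, 4 lay higher and 3 lower, with a median log2 fold change of 0.01. In this family 1 higher and 1 lower had p under 0.05, beside 7.2% and 5.52% of all genes. The authors' deposited table called 1 higher, Il2rg (adjusted p 0.00113). Il2rg, the common gamma chain to which JAK3 binds, stood at 1896 ± 185 CPM with IL-10/Fc (SD, n = 4) and 1052 ± 264 CPM with PBS (SD, n = 2), a log2 difference of 0.85 (SE 0.17, edgeR adjusted p = 0.193). Il21r, the receptor of interleukin-21, stood at 193 ± 21.8 CPM with IL-10/Fc and 282 ± 80.4 CPM with PBS, with a log2 difference of -0.55 (SE 0.19, edgeR adjusted p = 0.331) that was -0.82 without PBS replicate 1 and -0.22 without PBS replicate 2. Il4ra, the receptor chain that engages STAT6, had a log2 fold change of -0.42 (SE 0.23, edgeR adjusted p = 0.51) with groups that did not overlap. Il2rb overlapped between the groups, at 735 ± 127 CPM with IL-10/Fc and 826 ± 116 CPM with PBS.

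Of 12 tested receptors outside that family that use JAKs, 9 lay higher and 3 lower, with a median of 0.40. Among them 2 higher and 1 lower had p under 0.05, beside 7.2% and 5.52% of all genes. Il10ra, the chain that binds interleukin-10, stood at 20.4, 17.8, 11.5 and 18.6 CPM in IL-10/Fc replicates 1 to 4, against 78.5 and 43.1 CPM in the PBS libraries. Every IL-10/Fc library lay below both PBS libraries, with a log2 difference of -1.83 (SE 0.31, edgeR adjusted p = 0.158); in the authors' deposited table it was called lower with an adjusted p of 2.2e-05. Il12rb2, the inducible chain of the interleukin-12 receptor upstream of STAT4, stood at 101 ± 9.48 CPM with IL-10/Fc and 73.7 ± 8.03 CPM with PBS, a log2 difference of 0.45 (SE 0.14, edgeR adjusted p = 0.285). Il12rb1, its partner, stood at 13.9 ± 6.62 CPM with IL-10/Fc and 4.94 ± 2.18 CPM with PBS and overlapped between the groups. Ifnar2, a chain of the type I interferon receptor, had a log2 fold change of 0.44 (SE 0.22, edgeR adjusted p = 0.484), which was 0.85 without PBS replicate 1 and 0.12 without PBS replicate 2.

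Of 4 other JAK and STAT genes (Jak1, Tyk2, Stat2 and Stat3), 3 lay higher and Stat3 lower, with a median of 0.64. On the higher side 1 had p under 0.05, beside 7.2% of all genes. Jak1, the kinase shared by most of these receptors, stood at 264 ± 34.5 CPM with IL-10/Fc (SD, n = 4) and 172 ± 10.6 CPM with PBS (SD, n = 2). Its log2 fold change was 0.62 (SE 0.14, edgeR adjusted p = 0.21), and the authors' deposited table called it higher (adjusted p 0.00845). Tyk2 stood at 17.0 ± 4.06 CPM with IL-10/Fc and 10.7 ± 2.51 CPM with PBS, without overlap. Stat2 stood at 8.68 ± 3.60 CPM with IL-10/Fc and 4.91 ± 2.37 CPM with PBS, with overlap. Stat3 stood at 253 ± 18.8 CPM with IL-10/Fc and 347 ± 171 CPM with PBS, and its log2 fold change of -0.46 was 0.16 without PBS replicate 2.

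Among 5 other SOCS genes, 3 lay higher and 2 lower, with a median of 0.37. On the lower side 1 had p under 0.05, beside 5.52% of all genes. Socs5, an inhibitor linked to interleukin-4 receptor signalling, stood at 4.76, 4.85, 5.08 and 7.15 CPM in IL-10/Fc replicates 1 to 4, against 14.1 and 13.7 CPM in the PBS libraries. Every IL-10/Fc library lay well below both PBS libraries, with a log2 difference of -1.35 (SE 0.27, edgeR adjusted p = 0.192), and the authors' deposited table called it lower (adjusted p 0.000806). Socs3, the feedback inhibitor of the STAT3 pathway, stood at 4.79 ± 3.79 CPM with IL-10/Fc and 2.32 ± 0.926 CPM with PBS and overlapped, as did Socs4 (log2 fold change 0.37) and Socs7 (0.78). Of 12 other negative regulators, 5 lay higher and 7 lower, with a median of -0.04, and 2 higher had p under 0.05, beside 7.2% of all genes. Ptprc, the phosphatase CD45, stood at 1514 ± 147 CPM with IL-10/Fc and 834 ± 34.5 CPM with PBS (log2 fold change 0.86, SE 0.11, edgeR adjusted p = 0.148), and was the 1 of the list that the authors' deposited table called, as higher. Cbl, a ubiquitin ligase, stood at 11.6 ± 0.205 CPM with IL-10/Fc and 7.30 ± 2.51 CPM with PBS without overlap, while Ptpn2 (log2 fold change 0.24) and Pias2 (-0.43) overlapped. Without PBS replicate 1 or 2 the log2 fold change of Socs4 was 0.60 or 0.16 and that of Ptpn2 0.076 or 0.43, and that of Pias2 was -0.67 without IL-10/Fc replicate 4. Of the PIM kinases beside Pim2, Pim1 had a log2 fold change of 1.15 (SE 0.21, edgeR adjusted p = 0.174) and was called higher in the authors' deposited table (adjusted p 3.12e-05), and Pim3 lay lower at -0.78 (SE 0.43, edgeR adjusted p = 0.509).

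Genes known to be induced through these factors lay on both sides of 0. Of 10 measured genes induced through STAT5, 6 lay higher and 4 lower, with a median of 0.06. In that list 2 higher and 1 lower had p under 0.05, beside 7.2% and 5.52% of all genes. Mcl1, a survival factor of the BCL2 family, stood at 103 ± 8.07 CPM with IL-10/Fc (SD, n = 4) and 60.5 ± 4.06 CPM with PBS (SD, n = 2), a log2 difference of 0.77 (SE 0.13, edgeR adjusted p = 0.153). Id2, a regulator of effector differentiation, had a log2 fold change of 0.85 (SE 0.25, edgeR adjusted p = 0.276), and the authors' deposited table called both Mcl1 and Id2 higher (adjusted p 1.56e-05 and 0.0248). The edgeR value of Id2 was 0.50 without PBS replicate 1 and 1.32 without PBS replicate 2. Bcl2l1, which encodes the survival factor BCL-XL, stood at 32.4 ± 8.94 CPM with IL-10/Fc and 64.5 ± 22.0 CPM with PBS, with groups that did not overlap (log2 fold change -0.99, SE 0.31, edgeR adjusted p = 0.295, and -0.59 without PBS replicate 1). Osm, a cytokine of the interleukin-6 family, overlapped at 13.5 ± 7.75 CPM with IL-10/Fc and 5.84 ± 0.664 CPM with PBS.

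Of 6 genes induced through STAT4, 2 lay higher and 4 lower, with a median of -0.41. In that list 1 higher and 3 lower had p under 0.05, beside 7.2% and 5.52% of all genes. The 2 higher were Il12rb2, given above among the receptors, and Ifng. Ifng stood at 1346, 1746, 3774 and 2361 CPM in IL-10/Fc replicates 1 to 4, against 193 and 1424 CPM in the PBS libraries. Its groups overlapped, and its log2 fold change was the largest of the list at 1.51 (SE 0.82, edgeR adjusted p = 0.509). Tbx21, the master factor of type 1 immunity, stood at 73.4, 50.3, 54.6 and 49.3 CPM in IL-10/Fc replicates 1 to 4, against 91.4 and 118 CPM in the PBS libraries. Il18rap, a chain of the interleukin-18 receptor, stood at 222 ± 19.6 CPM with IL-10/Fc and 383 ± 95.0 CPM with PBS. Neither overlapped between groups, with log2 fold changes of -0.88 (SE 0.20, edgeR adjusted p = 0.21) and -0.79 (SE 0.16, edgeR adjusted p = 0.193), and the authors' deposited table called both lower (adjusted p 0.0101 and 0.00245). Il18r1, the other chain, overlapped at a log2 fold change of -0.61 (SE 0.22, edgeR adjusted p = 0.353), which was -0.19 without PBS replicate 1 and -0.93 without PBS replicate 2. Il18rap was -0.51 without PBS replicate 1. Of 2 measured genes induced through STAT6, Gata3 stood at 12.7 ± 5.05 CPM with IL-10/Fc and 12.3 ± 8.07 CPM with PBS, and Il4ra is given above; neither had p under 0.05.

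**Figure D5:**
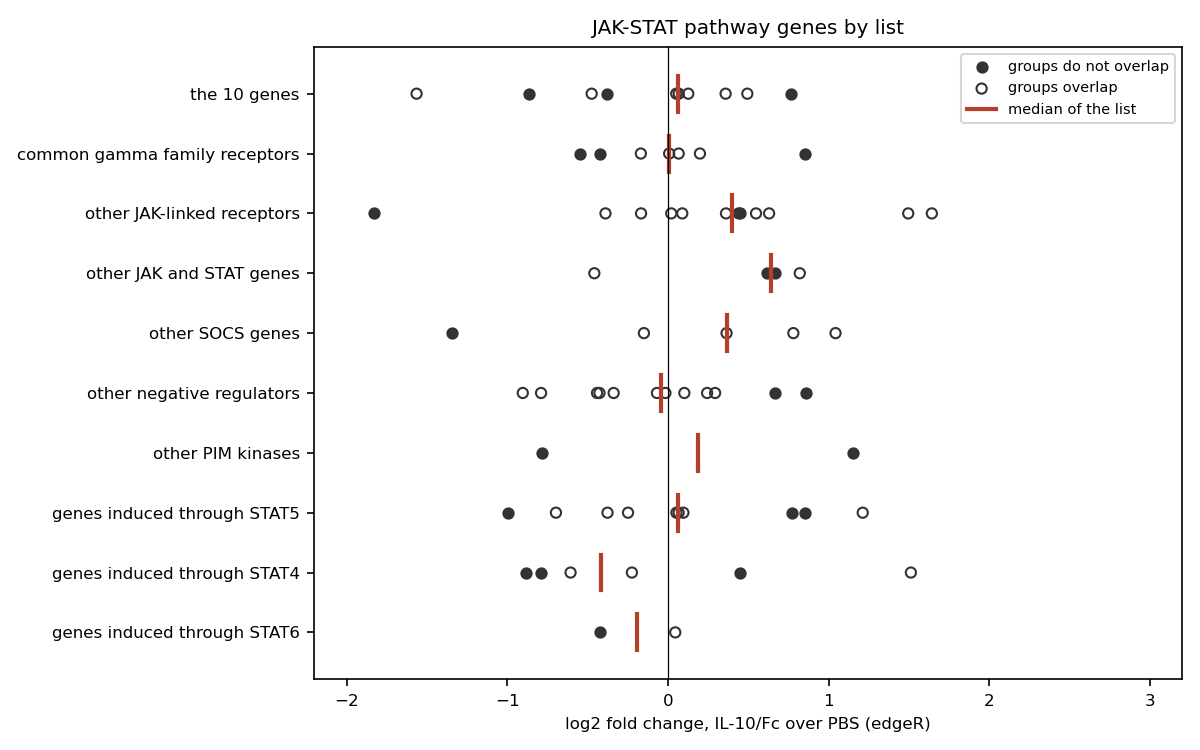
Log2 fold change, IL-10/Fc over PBS, of each gene (circles, filled where the libraries of the groups do not overlap) in the 9 pathway lists and for the 10 genes in the top row, with the median of each row as a red bar. The median of the 10 genes is 0.06 and that of the STAT4-induced genes -0.41, while Il10ra lies at -1.83 among the other receptors.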

How the data were processed

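RNA of sorted T cells was measured by Smart-Seq2, which carries no molecular identifiers and no strand mark. The authors deposited a file of raw counts for each library, equal in all 6 libraries to the columns of a series table. The PBS columns bear the numbers 2 and 3 and the sample titles 1 and 2, and the titles were followed. That deposited table also holds the authors' mean of normalized counts (a signal), log2 fold changes with standard errors, a Wald score, p-values and adjusted p-values. Per the submitters' processing notes the tools were Trimmomatic, TopHat2 2.1.1, Bowtie2 2.2.9, Cufflinks 2.2.1, Cuffdiff and DESeq2 on mm10; the counting tool was not given in the sources used here. Genes outside the table were not analysed here, and 1 gene was left out of the lists and is not reported here.

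Counts were filtered with filterByExpr, scaled by TMM (factors 0.950 to 0.983 with IL-10/Fc, 1.10 and 1.06 with PBS) and fitted in edgeR 4.0.16 (glmQLFit with the robust option, glmQLFTest, two-sided) with group as the sole term, and p-values were adjusted by Benjamini-Hochberg over the 15477 genes at 0.05. Every "edgeR adjusted p" is from that fit. A standard error is the log2 fold change over the root of F. DESeq2 1.42.0, limma 3.58.1 (voom), other scalings and filters, a replicate block and leaving out each library were alternatives; the DESeq2 refit without each library was chosen after seeing the data. Exon lengths are from GENCODE M21 and promoter sequences from RefSeq GRCm38.p6. The fitting steps were tested on simulated data. Within groups every pair of libraries differed beyond sampling noise (chi-square over degrees of freedom 43.6 to 126), and each counted as 1 replicate.

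The 10 genes and all lists were chosen with earlier results of these data known. Named were the 10 genes, up to 4 genes with the smallest p per pathway list, and the 5 genes most like Stat6, the one with the smallest p. Nab2, Gm17040 and other overlapping genes were named after their values were seen. So were Ifng, the further STAT5-induced genes, Fcer1g, Klrb1c and Col1a1.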

Additional observations from a re-analysis of the deposited data

Results flagged for a closer look

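Of 43 values checked in the IL-10/Fc group of 4 libraries, 4 had a highest library set apart from the other 3 by a gap, relative to the group's whole range, beyond Dixon's critical value, where chance gives about 1 in 20. For Pim2 the gap was 0.939 of the range, with IL-10/Fc replicate 2 at 134 CPM and the others at 65.2 to 69.3 CPM. For Socs5 it was 0.866, with replicate 4 at 7.15 CPM and the others at 4.76 to 5.08 CPM. For Il12rb2 it was 0.855, with replicate 3 at 115 CPM and the others at 93.9 to 96.9 CPM. For the Stat5a share of Stat5a plus Stat5b counts per length it was 0.868, with replicate 3 at 49.2% and the others at 37.4% to 39.0%. The library set apart was not the same one for all 4.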

How the results depend on the processing

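The difference kept its direction under all 14 alternatives for Stat4 (-0.55 to -0.29), Stat5b, Stat6 (-1.04 to -0.69), Jak3, Socs2 and Pim2 (0.45 to 0.95). Scaling by library size only moved the median of all genes to -0.18 and turned the sign for Jak2 (-0.046), Socs1 (-0.10), Cish (-0.10) and Gata3 (-0.12). Cish was -0.011 with limma-voom. Without single libraries Stat5a ran from -1.003 to 0.37, Jak2 from -0.11 to 0.40, Socs1 from -0.62 to 1.34, Cish from -0.18 to 0.25, Stat3 from -0.89 to 0.16 and Gata3 from -0.50 to 0.94. The signs that turned were those of Gata3 without IL-10/Fc replicate 1 (-0.25) or PBS replicate 1, Socs1 without IL-10/Fc replicate 2 (-0.28) or PBS replicate 1, Cish without IL-10/Fc replicate 2, Stat5a without PBS replicate 1, and Jak2 and Stat3 without PBS replicate 2. DESeq2 turned the same signs without the same libraries (Gata3 -0.25 and -0.50, Socs1 -0.29 and -0.62, Cish -0.18, Stat5a 0.37, Jak2 -0.10, Stat3 0.17). The cause was not tested.

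Of the 10 genes edgeR called 0 without any single library. DESeq2 called 1 with all libraries, 0 without IL-10/Fc replicate 4 or PBS replicate 1, 2 without IL-10/Fc replicate 2 and 1 without each of the others. Over all genes edgeR called 1, and 0 with library size only, with no robust option or with the replicate block, 60 with at least 20 CPM in 2 libraries (fewer genes tested; Socs1 was not among them) and 0 to 16 without single libraries, the 16 without PBS replicate 2. DESeq2 called 738, and 644, 663, 690 and 464 without IL-10/Fc replicates 1 to 4, 511 without PBS replicate 1 and 1155 without PBS replicate 2. The groups shared replicate numbers 1 and 2 only, deviations correlated at 0.0625 and 0.0148 in these pairs, and no label ties them, so the block (Cish -0.027, Il2rb 0.029) joins libraries that share only a number. A lone PBS library was taken to vary as the IL-10/Fc libraries do, and the spread within PBS rests on a single pair.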

Other observations

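The gate markers and other genes of exhaustion were read beside the 10 genes. Pdcd1, which encodes PD-1, stood at 699.5, 1112, 994 and 867 CPM in IL-10/Fc replicates 1 to 4, against 1578 and 1286 CPM in the PBS libraries (log2 fold change -0.64, SE 0.19, edgeR adjusted p = 0.285). The DESeq2 refit called Pdcd1 lower (adjusted p = 0.0416), while in the authors' deposited table its adjusted p was 0.0558. Thy1, whose reads were not split here by allele, stood at 519 ± 130.5 CPM with IL-10/Fc and 219 ± 57.4 CPM with PBS, without overlap (log2 fold change 1.24, SE 0.28, edgeR adjusted p = 0.206), and the authors' deposited table called it higher (adjusted p 0.000833). Cd8a stood at 3161, 3097, 2896 and 3144 CPM in IL-10/Fc replicates 1 to 4, against 910.4 and 2292 CPM in the PBS libraries (log2 fold change 0.94, SE 0.34, edgeR adjusted p = 0.351). Pdcd1 thus lay lower, and Thy1 and Cd8a higher, in every IL-10/Fc library than in either PBS library. Havcr2, which encodes TIM-3, stood at 219 ± 64.4 CPM with IL-10/Fc (SD, n = 4) and 194 ± 8.06 CPM with PBS (SD, n = 2), and Lag3 at 129 ± 10.3 CPM and 105 ± 21.1 CPM, with groups that overlapped. Entpd1, the ectoenzyme CD39, stood at 370.2 ± 28.1 CPM with IL-10/Fc and 217 ± 114 CPM with PBS with groups that did not overlap (edgeR adjusted p = 0.378). Tox, the factor of the exhaustion programme, spanned 20.1 to 181 CPM with IL-10/Fc and stood at 33.1 and 480.5 CPM in the PBS libraries.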
